A study of Mus musculus with 6 samples.

Results

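The constitutive proteasome subunits of the mouse were examined as 1 group of 34 genes, taken by symbol (Psma1 to Psma7, Psmb1 to Psmb7, Psmc1 to Psmc6 and every numbered Psmd gene that is protein-coding in the GENCODE M21 annotation) from the 22700 gene identifiers of the deposited table. In that table the identifiers stand beside the values of other genes. Each identifier was moved to its own row by matching the rank of the K79S value beside it to the rank of the rows in W83S, with small shifts, which placed 11056 identifiers and all 34 of the proteasome genes. The group holds 7 alpha-ring and 7 beta-ring genes of the 20S core, 6 ATPase genes and 14 non-ATPase genes of the 19S regulator. The members were chosen by symbol, and the row of each was selected on its values in K79S and W83S. Those 2 columns are also part of every comparison below.

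The proteasome is the main protease of the cytosol and nucleus. It takes up proteins that carry ubiquitin chains: the 19S regulator binds the chain, removes it and unfolds the protein with its ATPase ring, and the 20S core cuts the chain of amino acids inside a barrel of alpha and beta rings. Only 3 constitutive beta subunits, Psmb5, Psmb6 and Psmb7, carry active sites, and in immune cells and in tissue exposed to interferon they are replaced by the inducible subunits Psmb8, Psmb9 and Psmb10. In many cells the genes for both particles are raised together by the transcription factor NRF1 (Nfe2l1) when proteasome activity is short.

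Mucosa from the middle of the small intestine gave 1 RNA library per mouse, with the K libraries (K79S, K82S, K86S) from 3 animals lacking alk-SMase (KO) and the W libraries (W83S, W89S, W90S) from 3 wild types (WT), all C57BL/6. alk-SMase is the intestinal sphingomyelinase encoded by Enpp7, and exon 2 of this gene had been deleted through Cre and loxP sites. The labels give neither age nor sex, and the sources used here do not say in which cells Cre acted. Enpp7 was not among the identifiers placed and its value was not analysed here, so the genotype labels were not checked. A value for the whole gene need not show the loss of 1 exon. Values are FPKM, reads per length of transcript and per mapped reads of the library, and are given below in the order K79S, K82S, K86S for KO and W83S, W89S, W90S for WT.

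The libraries had between 20061 (K86S) and 21679 (K82S) rows above 0, and the FPKM of a library summed to between 393152 (K79S) and 495362 (W89S). All 14 enterocyte markers listed for the check of the tissue were placed and above 0 in every library, led by Apoa1 and Fabp2. W83S stood apart. Its 8 placed gastric markers, led by Tff1 and Pgc, summed to 41042 FPKM against 0.0479 to 5.94 in the other libraries, and its 6 placed pancreatic markers, led by Clps and Pla2g1b, to 12549 against 13.2 to 86.3. Some counts below are therefore also given without a library. Because the tissue is a mixture of cells, fewer cells of a type and less RNA per cell cannot be told apart.

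Every one of the 34 genes was expressed in every library, and all 34 passed the filter of at least 1 FPKM in at least 2 libraries. FPKM is per length, so that levels can be set beside each other between genes. The genes of the core were the higher ones: in W90S the 14 core genes summed to 668 FPKM and the 20 regulator genes to 461. Within each ring the levels were far from equal. In W90S the highest alpha gene, Psma6 at 75.2 FPKM, was 6.91 times the lowest, Psma3 at 10.9, and the highest beta gene, Psmb1 at 106, was 4.36 times the lowest, Psmb7 at 24.2. Among the ATPases Psmc5, at 71.9 FPKM, was 5.40 times Psmc2, at 13.3. The widest spread was among the non-ATPase genes, where Psmd8 at 39.4 was 14.4 times Psmd5 at 2.74. Psmd5, like Psmd9 and Psmd10, encodes a chaperone that helps to build the base of the regulator and is not part of the finished particle. Of these 3, 2 had the lowest levels of all 34 genes, with Psmd9 between 2.44 and 3.72 FPKM. Psmd9 overlaps the non-coding gene Gm26745 on the opposite strand over 25.5% of its exonic bases.

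**Figure D1:**
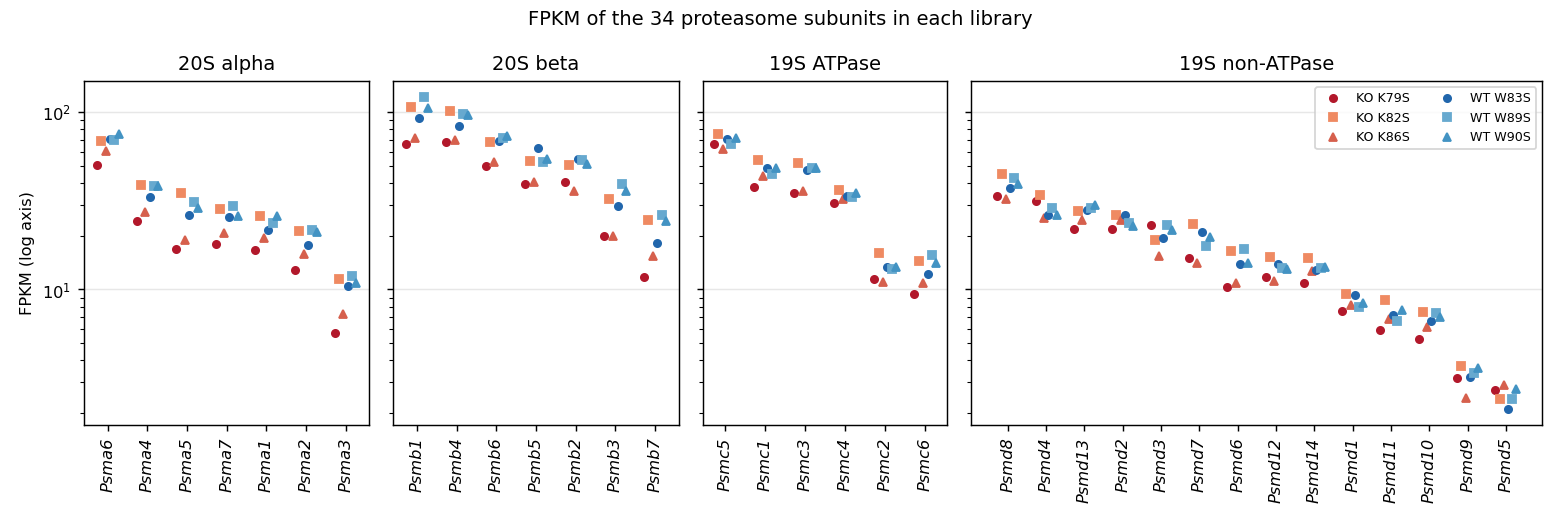
FPKM on a log axis for each of the 34 genes, ordered by mean level within 4 roles, with 1 point per library (KO in red tones, WT in blue tones). Levels within a ring differ several-fold, and for most genes of the core K79S and K86S are the 2 lowest points while K82S lies among the WT points.

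The comparison of KO with WT asks which transcripts differ in the mucosa when alk-SMase is lost. No proteasome gene passed it. In the limma fit of log2(FPKM + 1) over 13089 rows, with Benjamini-Hochberg adjustment and a fold change above 1.5 or below 2/3 required, 1 row passed (0.00764%) and it was none of the 34. At an unadjusted p under 0.05 the count was also 0 of 34, against 12.5% of all rows. The adjusted p of the 34 genes ran from 0.393 to 0.986. The estimates nevertheless lay mostly on 1 side: 31 of 34 were below 0, against 57.7% of all rows, and their median log2 difference was -0.22 against -0.06 for all rows tested. The 3 estimates above 0 were those of Psmd4, the ubiquitin receptor, of the scaffold gene Psmd2 and of Psmd5. In 4 of 34 genes (Psma6, Psmb2, Psmb6 and Psmd13) the 3 KO values were each under every WT value, which is close to the 11.3% of all rows with that order.

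The 7 alpha genes, whose products form the outer rings and the gate of the core, had a median log2 difference of -0.28 and were all below 0. Psma6, the most abundant (chromosome 12, 55384222 to 55418454, plus strand, GRCm38), had 50.1, 68.9 and 60.6 FPKM in KO and 70.8, 69.6 and 75.2 in WT. Its genotypes did not overlap, but K82S missed the lowest WT value by little. The means were 59.8 ± 9.41 (SD, n = 3) and 71.9 ± 2.96 (SD, n = 3), and the log2 difference was -0.27 with an SE of 0.17 (limma adjusted p = 0.504). Psma3, the lowest of the ring, had 5.67, 11.4 and 7.24 FPKM in KO and 10.4, 11.97 and 10.9 in WT. Here K82S lay among the WT libraries and the other two KO libraries far under them. The log2 difference of Psma3 was -0.46 (SE 0.24, limma adjusted p = 0.435), the largest of the ring. Psma3 shares 15.4% of the 50-base words in its transcripts with transcripts of other genes. Psma5 had 16.8, 35.1 and 18.97 FPKM in KO and 26.4, 31.0 and 28.7 in WT, so that K82S was the highest of all 6 libraries and K79S the lowest (log2 difference -0.34, SE 0.28, limma adjusted p = 0.619). Of the 50-base words in the transcripts of Psma5, 50.0% also occur in transcripts of other genes, among them the pseudogenes Gm12989 and Gm8394, so its share of the 50-base reads is uncertain. Psma1, Psma2, Psma4 and Psma7 ran from -0.29 to -0.21.

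The beta ring holds the active sites. Its 7 genes had a median log2 difference of -0.36, again with all of them below 0. Psmb5, the gene of the chymotrypsin-like subunit, had 39.2, 53.0 and 40.6 FPKM in KO and 63.2, 52.4 and 54.4 in WT (means 44.3 ± 7.60 and 56.7 ± 5.71, SD, n = 3). Psmb6, the gene of the caspase-like subunit, had 49.9, 68.1 and 52.1 FPKM in KO and 68.7, 71.9 and 73.8 in WT (means 56.7 ± 9.95 and 71.5 ± 2.54, SD, n = 3). Psmb7, the gene of the trypsin-like subunit, had 11.7, 24.8 and 15.4 FPKM in KO and 18.3, 26.5 and 24.2 in WT (means 17.3 ± 6.74 and 23.0 ± 4.23, SD, n = 3). In each of the 3 catalytic genes K79S and K86S were the lowest libraries, while K82S was within the WT range for Psmb5 and Psmb7 and just under it for Psmb6. The log2 differences were -0.36 (SE 0.18) for Psmb5, -0.34 (SE 0.17) for Psmb6 and -0.44 (SE 0.29) for Psmb7, with limma adjusted p of 0.423, 0.428 and 0.521. Psmb5 shares 54.1% of its 50-base words with other loci, Psmb5-ps and Gm3375 among them, and Psmb7 overlaps Nek6 on the opposite strand over 11.8% of its exonic bases.

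Of the other beta genes, which complete the ring without an active site, Psmb3 had the largest difference of all 34 genes. It had 20.04, 32.3 and 20.2 FPKM in KO and 29.6, 39.5 and 35.8 in WT, a log2 difference of -0.54 (SE 0.23, limma adjusted p = 0.393). Psmb3 shares 17.8% of its 50-base words with transcripts of other genes. Psmb1, the most abundant of the 34, had 66.3, 107 and 71.4 FPKM in KO and 92.5, 122 and 106 in WT (log2 difference -0.41, SE 0.23, limma adjusted p = 0.470). Both again had K79S and K86S at the bottom with K82S inside the WT range. Psmb2 had 40.5, 50.6 and 36.2 FPKM in KO and 54.6, 54.1 and 50.7 in WT. Its genotypes were separated only by the step from 50.6 in K82S to 50.7 in W90S. Psmb4 was at -0.24.

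The promoters of catalytic genes are shown because the NRF factors bind sites of the form TGANNNNGC in the promoters of proteasome genes. RefSeq promoters of GRCm38.p6, from 250 bases before to 50 after the start, were at hand for 28 of the 34 genes (30 promoters). The stretches below are the 100 bases before the RefSeq start, read 5′ to 3′ on the strand of the gene, with the TGANNNNGC match in capitals. The first lies at chr14:54617996-54618095 on the minus strand, where its last bases run into the first exon of Psmb5 as GENCODE draws it, and the second at chr11:70525257-70525356 on the plus strand.
Psmb5: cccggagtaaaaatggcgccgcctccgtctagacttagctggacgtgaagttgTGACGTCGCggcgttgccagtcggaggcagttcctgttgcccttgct
Psmb6: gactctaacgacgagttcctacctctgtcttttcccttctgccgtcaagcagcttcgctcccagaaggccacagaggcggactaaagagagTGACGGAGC
No promoter of Psmb7 was in the RefSeq table used here. On either strand TGANNNNGC was in 17 of the 30 promoters (56.7%), including all 4 of the beta ring (those of Psmb3, Psmb4, Psmb5 and Psmb6), against 41.3% of all 32851 promoters. The stricter TGACTCAGC, which is itself a match to TGANNNNGC, was in 0 of 30 and in 0.454% of all. The CCAAT box was in 36.7% against 37.4%, and GGCGGG, the core of a GC box, in 73.3% against 35.3%. These are counts of letters, and binding was not measured. A link between these sites and the levels in the libraries was not tested.

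The 6 ATPases, which form the ring that unfolds the substrate, lay closer to 0, with a median log2 difference of -0.07. Psmc5, the most abundant of them, had 65.9, 75.7 and 62.2 FPKM in KO and 70.4, 66.0 and 71.9 in WT, so the genotypes overlapped widely (log2 difference -0.04, SE 0.15, limma adjusted p = 0.936). Psmc6 had 9.46, 14.4 and 10.9 FPKM in KO and 12.3, 15.7 and 14.1 in WT, the largest difference of the ring at -0.27 (SE 0.19, limma adjusted p = 0.549). Psmc3, whose product contacts the alpha ring, had 34.9, 51.5 and 35.7 FPKM in KO and 47.3, 48.3 and 48.5 in WT (log2 difference -0.26, SE 0.19, limma adjusted p = 0.576). The WT libraries of Psmc3 lay close together while the KO libraries lay on both sides of them. For 5 of the 6 ATPases K82S was the highest of the 6 libraries.

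The 14 non-ATPase genes had a median of -0.10, with 11 below 0. Psmd13, a lid subunit, had 21.8, 27.6 and 24.6 FPKM in KO and 28.2, 28.7 and 30.0 in WT, with no overlap (log2 difference -0.23, SE 0.15, limma adjusted p = 0.507). It overlaps Sirt3 on the opposite strand over 10.1% of its exonic bases. Psmd6, another lid gene, had 10.4, 16.6 and 10.8 FPKM in KO and 13.9, 17.0 and 14.03 in WT, at -0.26 (SE 0.21, limma adjusted p = 0.608). Psmd8, the most abundant of the regulator's non-ATPase genes, had 33.5, 44.7 and 32.4 FPKM in KO and 37.2, 42.5 and 39.4 in WT, at -0.12 (SE 0.18, limma adjusted p = 0.796). Psmd5 was the exception in order: its lowest library was W83S with 2.11 FPKM and its highest was K86S with 2.90 (log2 difference 0.10, SE 0.13). The ubiquitin receptor Psmd4 was at 0.15, the scaffold genes Psmd1 and Psmd2 at -0.03 and 0.01, and Psmd14, which cuts the ubiquitin chain off, at -0.04.

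The KO libraries differed from each other in the same way in most of the genes. K79S was the lowest of the 6 libraries for 24 of the 34 genes (26.4% of all rows had K79S lowest), and for 13 of the 14 core genes. K82S lay above all 3 WT libraries for 17 of the 34 (30.3% of all rows), which were 14 of the 20 regulator genes and 3 of the 14 core genes. For the median core gene, log2(FPKM + 1) deviated from its mean over the 6 libraries by -0.41 in K79S, 0.22 in K82S and -0.29 in K86S, and by 0.05, 0.23 and 0.20 in the WT libraries. The median regulator gene deviated by -0.17, 0.19 and -0.15 in KO and by 0.02, 0.02 and 0.07 in WT. With K82S left out, K79S and K86S lay below all 3 WT libraries for 28 of 34 genes, 14 of 14 in the core and 14 of 20 in the regulator (32.3% of 12764 rows), and 32 of 34 estimates were below 0 (59.9% of rows). The limma fit then called 1184 rows (9.28%) and 3 of the 34 genes (Psma3, Psma5 and Psmb3, adjusted p between 0.044 and 0.047), which is no larger a share than that of all rows. Leaving out W83S, the library with gastric and pancreatic RNA, kept 0 of 34 past the test and moved the median to -0.26. The median of the 34 was -0.37 without K82S and -0.13 without K79S, and that of the ATPases went from -0.07 to -0.21 without K82S.

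**Figure D2:**
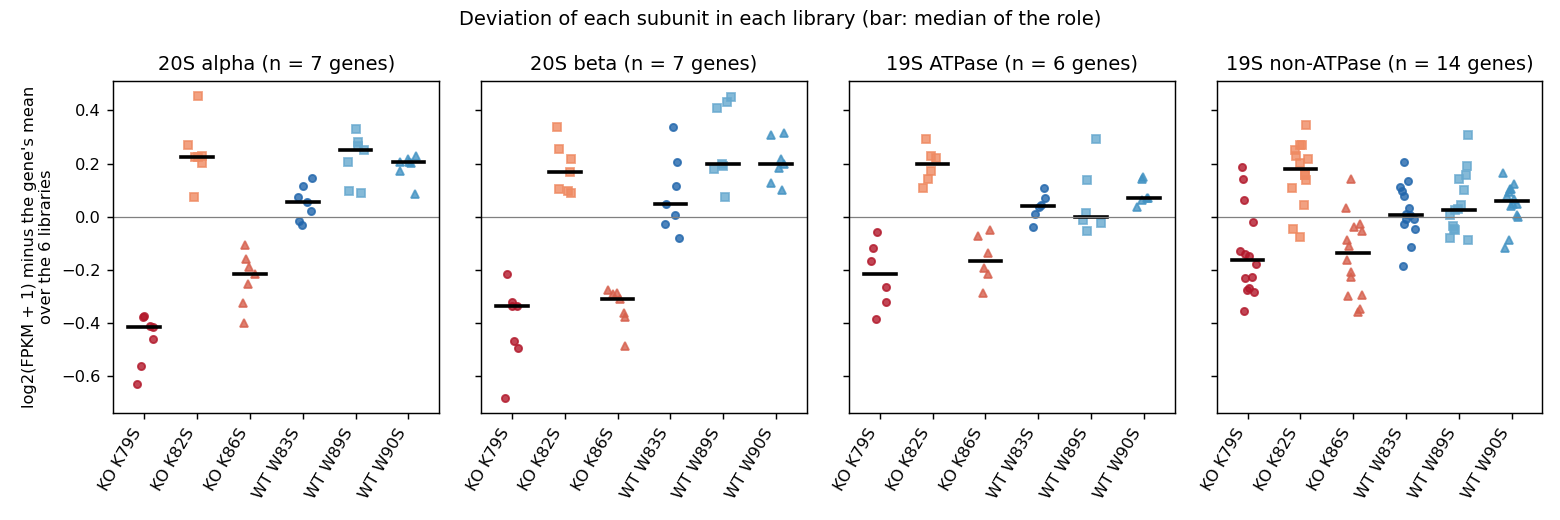
For each gene, log2(FPKM + 1) in a library minus its mean over the 6 libraries, in 4 roles. Points are genes and bars are medians. The alpha and beta genes fall well below 0 in K79S and K86S (median of the 14 core genes -0.41 and -0.29) and lie above 0 in K82S (0.22), whereas the regulator genes vary less.

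Core and regulator were also set against each other within a library, which does not depend on how libraries are scaled. The geometric mean FPKM of the 14 core genes over that of the 20 regulator genes was 1.75 in K79S, 2.18 in K82S and 1.93 in K86S, and 2.20, 2.44 and 2.34 in W83S, W89S and W90S. All 3 KO libraries were therefore below all 3 WT libraries, but K82S and W83S nearly met. No test was made of this ratio, since its genes were chosen with results of these data known.

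Core and regulator genes differ in length, and the comparison moved with length over the whole table. Core transcripts had a median annotated length of 1162.5 nt (766 to 2911) and regulator transcripts 1710.5 nt (1316 to 4397). Over all placed rows tested, the median log2 difference between KO and WT was -0.39 for transcripts under 1000 nt, -0.19 from 1000 to 1500, -0.11 from 1500 to 2000, -0.03 from 2000 to 3000 and 0.06 from 3000 nt. The proteasome genes in the same classes had medians of -0.34 (5 genes), -0.24 (11 genes), -0.12 (9 genes), -0.16 (7 genes) and 0.03 (2 genes). The medians of the proteasome genes thus ran beside those of all genes of their length. They were lower in 4 of the 5 classes, by most from 2000 to 3000 nt, where Psma2 and Psma3 fall. After a smooth curve of the log2 difference on length was taken off, a step added after the data had been seen, the median of the 34 genes was -0.02 and 20 of 34 were below 0. The core was then at -0.07, with 12 of 14 below 0, and the regulator at 0.02, with 8 of 20 below 0. Genes that kept a difference of at least 0.25 after this step were Psma2 at -0.27, Psma3 at -0.44, Psmb1 at -0.29 and Psmd4 at 0.34. Psma2, Psma3 and Psmb1 have the longest annotated transcripts of the core, at 2911, 2846 and 1758 nt. Each length is that of a single annotated transcript, and which transcript forms were expressed was not examined. The values after this step depend on that choice. Rows shorter than 1000 nt followed the same libraries as the core, with median deviations of -0.40, 0.17 and -0.31 in KO. The part of RNA quality or library preparation in this pattern was not tested.

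**Figure D3:**
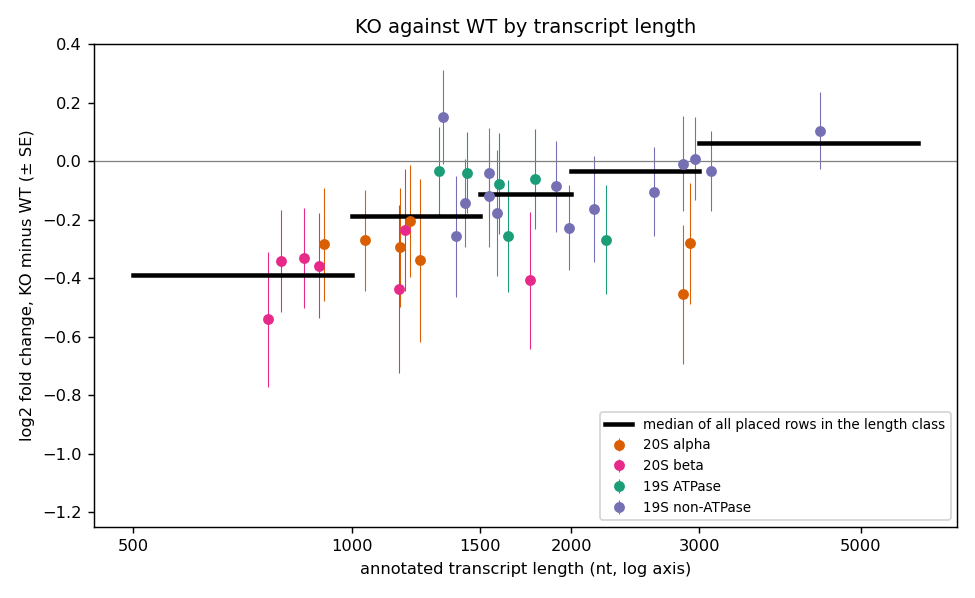
Log2 difference of KO and WT (with its SE) against annotated transcript length on a log axis for the 34 genes, coloured by role, with the median of all placed rows tested in 5 length classes as black bars (the first and last bars stand for all rows under 1000 nt and from 3000 nt). The shortest genes lie lowest, and most members lie near the bar of their class.

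Scaling set the level of the differences but not the order of the roles. Bringing every library to the same FPKM sum moved the median of all rows from -0.06 to 0.09, a shift of over 0.1, and that of the 34 genes to -0.04, with 19 of 34 below 0. Relative to the median of all rows the 34 genes were at -0.16 as deposited and at -0.13 with equal sums. Relative to the same median, the alpha and beta rings were between -0.30 and -0.20 under all 4 scalings tried, and the ATPase and non-ATPase groups between -0.03 and 0.02, with a change of sign for the ATPases. Under equal sums 40.6% of all rows were lower in KO, in place of 57.7%.

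Markers of crypt cells moved with the core. The 6 Paneth cell markers, led by Defa24 and Lyz1, were all lowest in K79S or K86S and summed to 609, 4223 and 1186 FPKM in KO and to 2341, 8521 and 6500 in WT. The 9 placed markers of proliferating cells, led by Pcna and Mcm6, were also all lowest in K79S or K86S and summed to 30.1, 61.6 and 34.8 FPKM in KO and to 51.9, 63.4 and 71.0 in WT. None of these lists had a marker at 0. As in the core, K82S was near the WT libraries. By their median, though not by their sum, plasma and B cell markers were also low in K79S and K86S. The 7 placed markers had median deviations of -1.02, 1.29 and -0.53 in KO. In WT these were -0.42, 0.18 and 0.50. Of these 7 markers, 4 were lowest in K79S or K86S. Their FPKM, led by Igha and Jchain, summed to 727, 1238 and 1229 in KO and to 747, 686 and 714 in WT. In the sum K86S was thus above all WT libraries. The enterocyte markers summed to 40900, 26341 and 43547 FPKM in KO and to 35812, 35519 and 40227 in WT, lowest in K82S. The part of the cell mixture in the levels of the proteasome genes was not tested.

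**Figure D4:**
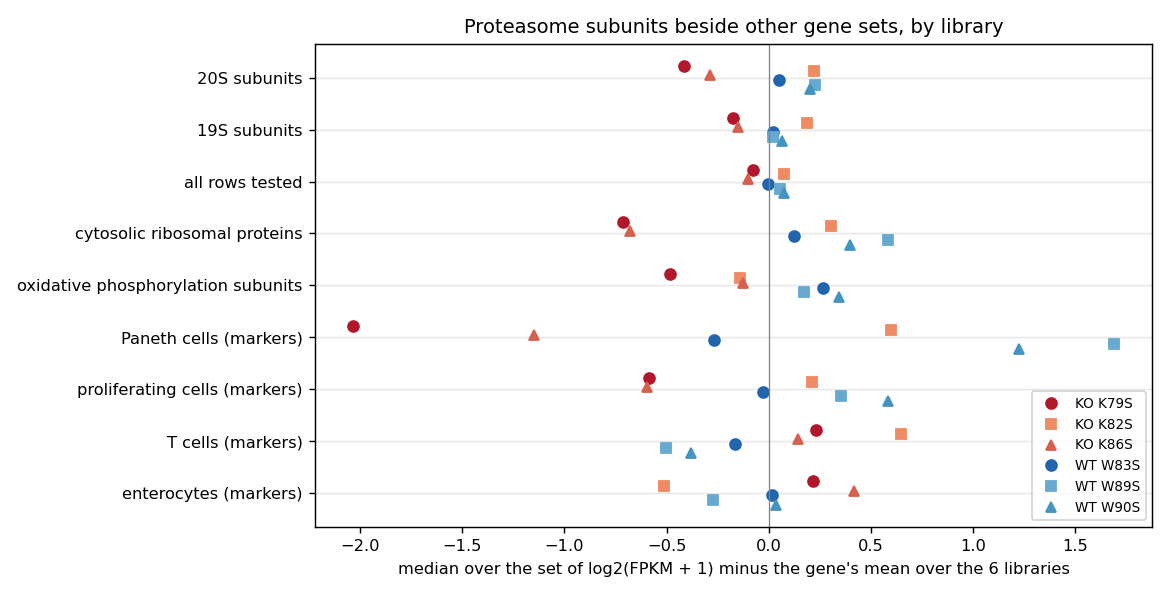
Median over each gene set of log2(FPKM + 1) minus the gene's mean over the 6 libraries, with 1 point per library. Core subunits, ribosomal proteins and markers of Paneth and proliferating cells are low in K79S and K86S and higher in K82S, while the T cell markers are higher in all 3 KO libraries (0.14 to 0.65) than in the WT libraries (-0.50 to -0.16).

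The estimates for the 3 inducible catalytic subunits lay above 0, unlike those of the constitutive ones. Psmb8, which takes the place of Psmb5, had 60.6, 68.5 and 41.3 FPKM in KO and 39.5, 34.6 and 38.5 in WT. All 3 KO libraries were above all 3 WT libraries, an order shared by 5.9% of all rows, though K86S was above W83S only by little (log2 difference 0.56, SE 0.22, limma adjusted p = 0.393). Psmb9, which takes the place of Psmb6, had 19.8, 23.7 and 17.4 FPKM in KO and 13.2, 12.6 and 18.9 in WT, with overlap through W90S (log2 difference 0.44, SE 0.21, limma adjusted p = 0.407). Psmb10, the partner of Psmb7, had 112, 153 and 111 FPKM in KO and 114, 110 and 140.7 in WT and was at 0.04 (SE 0.20, limma adjusted p = 0.945). Psmb10 was several times more abundant than Psmb7 in every library, whereas Psmb9 was below Psmb6 in every library. Psmb11, the thymus form, was not analysed here.

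Within a library, log2 of (Psmb8 + 1) over (Psmb5 + 1) was 0.62, 0.36 and 0.03 in KO and -0.66, -0.59 and -0.49 in WT, so that Psmb8 exceeded Psmb5 in the 3 KO libraries and not in the 3 WT libraries. The mean difference was 0.91. For Psmb9 over Psmb6 the difference was 0.78 and for Psmb10 over Psmb7 it was 0.48. For the first 2 pairs all KO ratios were above all WT ratios. For Psmb10 over Psmb7 this held with the 1 FPKM added to each value (2.58 in K82S against 2.57 in W83S), but with 0.1 or 0.01 FPKM added the genotypes overlapped and the exact permutation p was 0.2. The exact two-sided permutation p was 0.1 for each of the 3 pairs, which is the smallest that 3 against 3 libraries allow, and 0.1 after Benjamini-Hochberg adjustment over the 3 pairs. These genes too were chosen with earlier results known, so this p only restates the order. The constitutive partners have the shorter transcripts (899, 798 and 1160 nt against 1628, 1352 and 1311 nt). With the length trend taken off, Psmb5, Psmb6 and Psmb7 were at -0.06, -0.01 and -0.21. Psmb8, Psmb9 and Psmb10 were then at 0.69, 0.62 and 0.23. How far length enters the ratios was not tested. Of the 7 T cell markers, led by Gzma and Gzmb, 6 had each KO value over every WT value (5.9% of all rows). Among the markers 6 had an unadjusted limma p under 0.05 (12.5% of all rows), while 0 passed the adjusted test. Without K82S 1 of the 7 markers passed it, against 9.28% of all rows. They summed to 157, 227 and 158 FPKM in KO and to 116, 73.8 and 98.1 in WT. Their part in the levels of the inducible subunits was not tested.

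**Figure D5:**
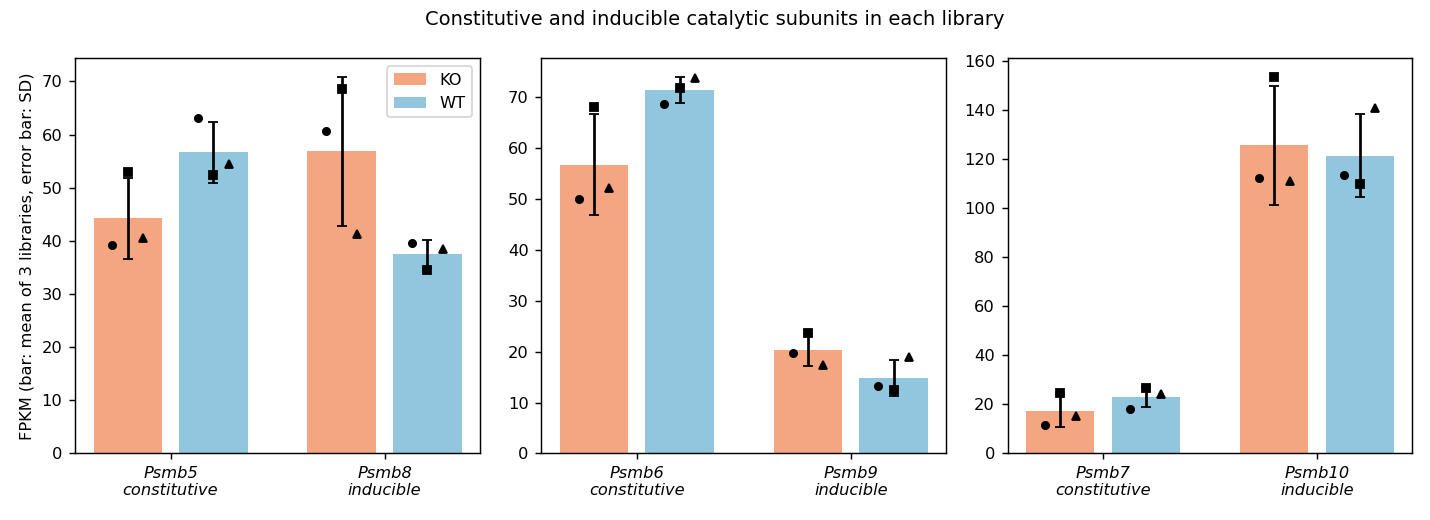
FPKM of the 3 constitutive catalytic subunits and their inducible counterparts, with bars for the mean of 3 libraries, error bars for the SD and 1 point per library (circle, square and triangle for K79S, K82S and K86S in KO and for W83S, W89S and W90S in WT). The Psmb8 bar exceeds the Psmb5 bar in KO and falls below it in WT, while Psmb10 is above Psmb7 in both genotypes.

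Other genes of the pathway did not pass the test with all 6 libraries either. Of the 5 assembly chaperones placed, 0 passed and 5 were below 0, with a median of -0.39. Without K82S 2 of the 5 passed, against 9.28% of all rows. These were Psmg1 at -0.79 (limma adjusted p = 0.0447) and Psmg2 at -1.45 (limma adjusted p = 0.0324). Pomp, which drives the joining of core precursors, had 12.2, 19.5 and 15.2 FPKM in KO and 15.8, 16.9 and 18.7 in WT (log2 difference -0.15, SE 0.19). Psmg4, whose product acts with Psmg3, had 4.20, 9.74 and 3.85 FPKM in KO and 6.32, 9.47 and 6.97 in WT. Psmg2, a chaperone of the alpha ring picked out after its values were seen, had 2.18, 6.44 and 1.02 FPKM in KO and 5.85, 5.15 and 6.78 in WT, with a log2 difference of -0.93 (SE 0.45, limma adjusted p = 0.413). As among the core genes, K82S was within or above the WT range for all 3. Without the trend on length the median of these chaperones was -0.004.

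Of the 11 factors that associate with the regulator, 0 passed, 9 were below 0 and the median was -0.05. Sem1, a small subunit of the lid, had the largest difference, with 17.7, 33.1 and 20.1 FPKM in KO and 31.5, 35.0 and 32.2 in WT (log2 difference -0.51, SE 0.24, limma adjusted p = 0.410). It alone of the 11 passed without K82S (-0.77, limma adjusted p = 0.0333), a share near the 9.28% of all rows. Ubqln1, a shuttle for ubiquitin-tagged proteins, had 19.5, 19.7 and 23.3 FPKM in KO and 21.0, 21.4 and 20.3 in WT. Of the 5 activators and regulators, which cap the core in place of the 19S particle or block it, 0 passed and the differences ran from -0.16 to 0.11. The 2 subunits of the interferon-induced cap were the highest of them, with Psme1 between 65.7 and 95.02 FPKM and Psme2 between 79.3 and 117 over the 6 libraries.

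Of the 13 genes for control by NRF1 and NRF2, 0 passed, 6 were below 0 and 7 above, and the median was 0.11. Nfe2l1 itself had 17.4, 21.7 and 15.0 FPKM in KO and 17.3, 5.84 and 16.2 in WT. Its log2 difference of 0.54 (SE 0.39, limma adjusted p = 0.566) came from W89S, since the other 5 libraries lay between 15.0 and 21.7, and without W89S it was 0.08. Nfe2l2 ran from 25.6 in K82S to 63.0 in W83S, and Srxn1, the most abundant gene of the list, from 107 in W83S to 161 in K82S. Of the 8 genes placed for ubiquitin and unfolding, 0 passed, 5 were below 0 and the median was -0.09. Without K82S 2 of the 8 passed, against 9.28% of all rows. Ubb had 635, 658 and 682 FPKM in KO and 545, 597 and 548 in WT. Ubb, a polyubiquitin gene, thus had all KO libraries above all WT libraries.

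Larger estimates were seen in 2 other protein assemblies with many short transcripts, none of whose genes passed the adjusted test with all 6 libraries. Without K82S it was passed by 66 of 76 ribosomal genes (86.8%) and 14 of 80 oxidative phosphorylation genes (17.5%), beside the 3 of 34 proteasome genes and 9.28% of all rows. The 76 cytosolic ribosomal protein genes had a median log2 difference of -0.73, with 75 of 76 below 0 and 44.7% at an unadjusted p under 0.05. The 80 nuclear-encoded subunits of oxidative phosphorylation had a median of -0.50, with 80 of 80 below 0 and 63.8% at an unadjusted p under 0.05. All 3 KO libraries were below all 3 WT libraries for 8 ribosomal genes (10.5%), for 60 oxidative phosphorylation genes (75.0%) and for 4 proteasome genes (11.8%), against the 11.3% of all rows. The ribosomal count rested on K82S. With K82S left aside, K79S and K86S were below all 3 WT libraries for 73 ribosomal genes (96.1%). The same held for 61 oxidative phosphorylation genes (76.25%) and 28 proteasome genes (82.4%), against 32.1% of all rows. The order of libraries within KO was also not alike: K82S deviated by 0.30 for the median ribosomal gene and by -0.14 for the median oxidative phosphorylation gene, and by 0.22 for the median core gene of the proteasome. With the trend on length taken off, the medians were -0.45 and -0.21, beside -0.02 for the proteasome genes. The difference between these groups was not tested.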

How the data were processed

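The authors read mucosal RNA from the mid small intestine as single-end 50 bp reads (Illumina HiSeq). They trimmed with trim-galore, aligned to mm10 using HISAT2 and assembled and quantified transcripts using StringTie. Versions, gene models and strand settings are not given in the sources used here. The deposited unit is FPKM, a value for each gene in each library, in which gene length and library size are already divided out. The authors name edgeR as their normalization, and whether it was applied to this table is not stated. FPKM carries no read counts, so depth per value is unknown, no counting interval is given, and precision rests on the spread between 3 mice per genotype. All 6 columns matched a sample title (0 unmapped).

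Identifiers were moved to their own rows by rank (11056 of 22700 placed), and symbols were read from GENCODE M21 (22680 matched). As a check, genes with 1 annotated transcript had values of at most 6 decimals in 99.8% of placed rows and those with several in 5.79%, against 45.9% and 41.0% as deposited. All 34 members have several annotated transcripts, and 1 of them (2.94%), Psmb1, had values of at most 6 decimals. The shifts had themselves been estimated from these decimals, so the check is not independent. The nearer neighbouring row differs from each member's row by at most 0.140% in W83S, and the gap to the other neighbour is not given. W83S thus hardly depends on a shift to the nearer row, while the other libraries do.

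Rows with at least 1 FPKM in at least 2 libraries (13089) were tested on log2(FPKM + 1), a scale that understates the change of low genes, with limma 3.58.1 in R 4.3.3 (mean-variance trend, all 6 libraries, no covariate, Benjamini-Hochberg adjustment). To pass, a row needed an adjusted p under 0.05 together with a fold change over 1.5 or under 2/3. Catalytic ratios were compared with an exact permutation test. KO and WT data were also simulated (13089 rows, noise as in each real row). In them the fit called 158 of 200 rows given a log2 change of 2, and 10 rows given none. Changes of the size estimated for the proteasome genes (log2 differences from -0.54 to 0.15) were not simulated. The simulation therefore cannot say how often the fit would miss changes of that size. Transcript length was that of the principal transcript, and the trend on length was a lowess curve (fraction 0.3) over 10919 placed rows. Python 3.11.15, pandas 2.3.3, scipy 1.17.1 and statsmodels 0.14.6 were used.

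The members and all lists were chosen with earlier results of these data known. Named were the catalytic genes, in each role the highest, the lowest and the 2 largest differences, genes without overlap, and the 2 most abundant genes, the inducible subunits and Nfe2l1 among the other lists. A member outside this rule is given by its estimate only. Some genes of the lists are not reported here. Genes named for passing without K82S were picked after their values were seen. Of the marker lists, smooth muscle (2 of 7 placed, 0 passed) and goblet cells (6 of 6 placed, 0 passed) were read as checks and are not described further. Plasma and B cells (7 of 8 placed, 0 passed) are described by their library pattern only.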

Additional observations from a re-analysis of the deposited data

How the results depend on the processing

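The count of 0 of 34 proteasome genes past the test held under every alternative but the one without K82S (leave-one-out range 0 to 3). The rows past it numbered 0 with a pseudocount of 0.1 or 0.01, 2 with limma array weights, and 0 to 1184 when 1 library was left out, with 1184 without K82S. Genes without overlap numbered 1 under quantile normalization and 5 to 28 in the leave-one-out fits, which compare fewer libraries. Genes lower in KO numbered 19 with equal FPKM sums and 20 with the length trend removed. Removing the trend was an alternative chosen after seeing the data. Under it the median of the 34 was -0.020 and that of the beta ring -0.062. With identifiers as deposited the count was 19. There the identifiers stand beside the values of other genes, so that count does not describe the proteasome genes.

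Signs changed as follows. With equal FPKM sums the ATPases were at 0.11, the non-ATPases at 0.076, all rows at 0.091, Psmc5 at 0.15, Psmd8 at 0.063 and Pomp at 0.027. With median ratio scaling the ATPases were at 0.019, all rows at 0.010 and Psmc5 at 0.057. With quantile normalization the ATPases were at 0.038, all rows at 0.031, Psmc5 at 0.13 and Psmd8 at 0.0018. With the length trend removed the ATPases were at 0.058 and the non-ATPases at 0.010, and 11 of the 31 proteasome genes below 0 came above it, among them Psma1 at 0.009 and Psma7 at 0.007, as did Psmg4 at 0.009. For the ratio of Psmb10 to Psmb7 the exact p was 0.2 at pseudocounts of 0.1 and 0.01. Psmb10 was at -0.10 with array weights. With 1 library left out Pomp ran from -0.31 to 0.0080 (without K79S), Psmc5 from -0.11 to 0.025 (without K86S) and Psmb10 from -0.11 (without K82S) to 0.15, being also below 0 without W83S (-0.0026) and W89S (-0.027). The causes were not tested.

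Depth limits cannot be stated for FPKM, and 3 libraries per genotype cannot reach p under 0.1 in an exact test. No paired analysis was possible because the labels do not say which KO and WT libraries belong together: the study speaks of matched pairs, but the replicate numbers used here follow the order of the samples only.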
